A study of Mus musculus with 14 samples.

Results

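The enzymes that break down amino acids in the liver were compared between sleep-deprived and control mice. They were a list of 53 genes, from the tyrosine pathway to the methylglycine dehydrogenases, and 51 of them were found among 22180 genes measured by a probe set with exactly 1 gene symbol. Where a gene had several probe sets, the brightest over all 14 arrays stood for it. The methylmalonyl-CoA mutase gene, listed as Mut, was matched under its current symbol Mmut, and the serine dehydratase genes Sds and Sdsl were not analysed here.

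Total RNA of frozen liver from male mice of the inbred strain C57BL/6J was labelled for Affymetrix GeneChip whole-transcript arrays, with 1 array per sample. The titles placed samples 1, 2, 3, 5, 6, 10 and 13 in the sleep deprivation group and samples 4, 7, 8, 9, 11, 12 and 14 in the control group, so n = 7 per group throughout. By its title, the study asked how 1 sleep deprivation of 6 h bears on glucose tolerance and liver fat. The labels name neither the method of sleep disturbance behind these arrays nor the age, feeding state or time of day, and each numbered sample is taken as 1 mouse, so p-values measure the spread between these samples. Values are log2 expression, on which a difference of 1 is a doubling.

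The liver is the main site of amino acid breakdown. Its enzymes strip off the amino group, by transamination or by direct deamination, and turn the carbon chains into glucose, ketone bodies or acetyl-CoA, while the nitrogen passes to the urea cycle. Several pathways are governed by their entry enzyme, and some of these, such as Tat and Tdo2, are textbook targets of glucocorticoids and of fasting.

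The 250 bases before the start site of Gldc and Tat, which rose, and of Hal and Amdhd1, which had the largest falls, are shown here, 5′ to 3′ on the gene's own strand, because these genes differed clearly between the groups and Hal and Amdhd1 lie side by side. They were taken from RefSeq on build GRCm38.p6. Capitals mark every match, on either strand, to 1 of 7 motifs: the glucocorticoid receptor half-site TGTTCT, the C/EBP core TTGCNNAA, the HNF4 repeat CAAAGTNCA, the HNF1 palindrome, the FOXO and FOXA element GTAAACA, the cAMP response element TGACGTCA and the CCAAT box. In these 4 sequences no match overlapped another.
Gldc, chr19:30175442-30175691, minus strand: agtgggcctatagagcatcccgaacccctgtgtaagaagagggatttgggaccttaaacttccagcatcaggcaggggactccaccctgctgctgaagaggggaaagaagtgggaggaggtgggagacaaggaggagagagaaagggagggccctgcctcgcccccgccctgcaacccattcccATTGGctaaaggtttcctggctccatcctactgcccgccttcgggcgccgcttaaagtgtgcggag
Tat, chr8:109990186-109990435, plus strand: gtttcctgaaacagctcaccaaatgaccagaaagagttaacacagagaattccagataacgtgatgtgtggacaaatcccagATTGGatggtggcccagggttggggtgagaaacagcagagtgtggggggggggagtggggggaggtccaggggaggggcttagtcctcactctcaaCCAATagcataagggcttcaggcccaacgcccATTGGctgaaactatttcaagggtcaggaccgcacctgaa
Hal, chr10:93488518-93488767, plus strand: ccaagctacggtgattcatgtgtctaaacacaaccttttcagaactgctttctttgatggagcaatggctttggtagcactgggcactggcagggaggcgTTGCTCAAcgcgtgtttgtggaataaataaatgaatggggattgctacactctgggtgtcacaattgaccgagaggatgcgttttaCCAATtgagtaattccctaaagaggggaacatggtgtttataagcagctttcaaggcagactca
Amdhd1, chr10:93540034-93540283, minus strand: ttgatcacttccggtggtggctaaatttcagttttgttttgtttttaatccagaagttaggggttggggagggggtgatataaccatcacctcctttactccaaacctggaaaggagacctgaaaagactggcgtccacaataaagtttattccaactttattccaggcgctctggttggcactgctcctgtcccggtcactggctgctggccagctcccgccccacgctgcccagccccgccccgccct

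The Tat sequence held 3 CCAAT boxes, with their first base 168, 72 and 40 bases before the start. Gldc held 1 at 66 bases, and Hal 1 at 64 bases beside a C/EBP core at 150 bases. Amdhd1 held none of the 7 motifs in this window. Of the 44 enzymes with a promoter in the table, 23 (52.3%) had a CCAAT box, against 33.8% of all 32851 promoter windows of the same length. The glucocorticoid receptor half-site stood in 4 of the 44 (9.09%) and in 16.1% of all windows. It stood in 0 of the 8 enzymes with a promoter that were higher after sleep deprivation and in 1 of the 9 that were lower. The CCAAT box stood in 5 of those 8 and in 4 of those 9. The C/EBP core stood in 4 of the 44 (9.09%, against 9.56% of all windows), the HNF4 repeat in 3 (6.82%, against 1.19%) and the FOXO and FOXA element in 1 (2.27%, against 3.17%), while the HNF1 palindrome and the cAMP response element stood in 0 (0.00913% and 1.55% of all windows). These are matches of letters and say nothing of binding.

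Among the 51 enzymes, 9 rose and 9 fell after sleep deprivation (limma, adjusted p under 0.05 over all genes). Those that rose included the entry enzymes of tyrosine (Tat), tryptophan (Tdo2) and lysine (Aass) breakdown and Gldc, which degrades glycine. Those that fell included Hal, the entry enzyme of histidine breakdown, Amdhd1 of the same pathway and 3 enzymes of branched-chain amino acids. The members past the threshold made up 35.3% of the list, where 8.5% of all genes passed, 3.88% as higher and 4.62% as lower. The list was chosen with earlier results of these data known, so the shares of members given here are descriptions, not tests. The enzymes are strongly expressed, and strongly expressed genes were called more often. In the brighter 11090 genes, which hold all 51 enzymes, 16.0% passed (7.33% higher and 8.71% lower), and with those genes fitted alone 20.4% passed (9.43% higher and 10.9% lower). Of the 43 members with a mean log2 level of at least 8, a limit chosen after the data were seen, 34.9% passed, against 26.6% of the 1780 genes at that level. By direction this was 18.6% higher, against 10.8%, and 16.3% lower, against 15.8%, so that the share of falls was near that of other bright genes. In whole liver, fewer cells of a type and less RNA per cell cannot be told apart.

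Most differences were small. The median absolute log2 difference of the 18 enzymes past the threshold was 0.27, against 0.33 over all called genes, and only Acmsd and Gldc among them reached 0.5. Over all 51 enzymes, 37 (72.5%) had a difference below 0, against 51.6% of all genes and 54.8% of genes with a level of at least 8. The median was -0.07, beside a median of -0.0048 over all genes and -0.015 over genes with that level. With arrays centred on their median or quantile normalized again, 36 and 35 of the 51 (70.6% and 68.6%) lay below 0, against 47.6% and 49.8% of all genes. The groups did not overlap in 8 of the 51 enzymes (15.7%), against 3.13% of all genes. The median log2 level was 9.59 for the enzymes and 3.99 for all genes, and this share was not counted for genes of a like level.

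**Figure D1:**
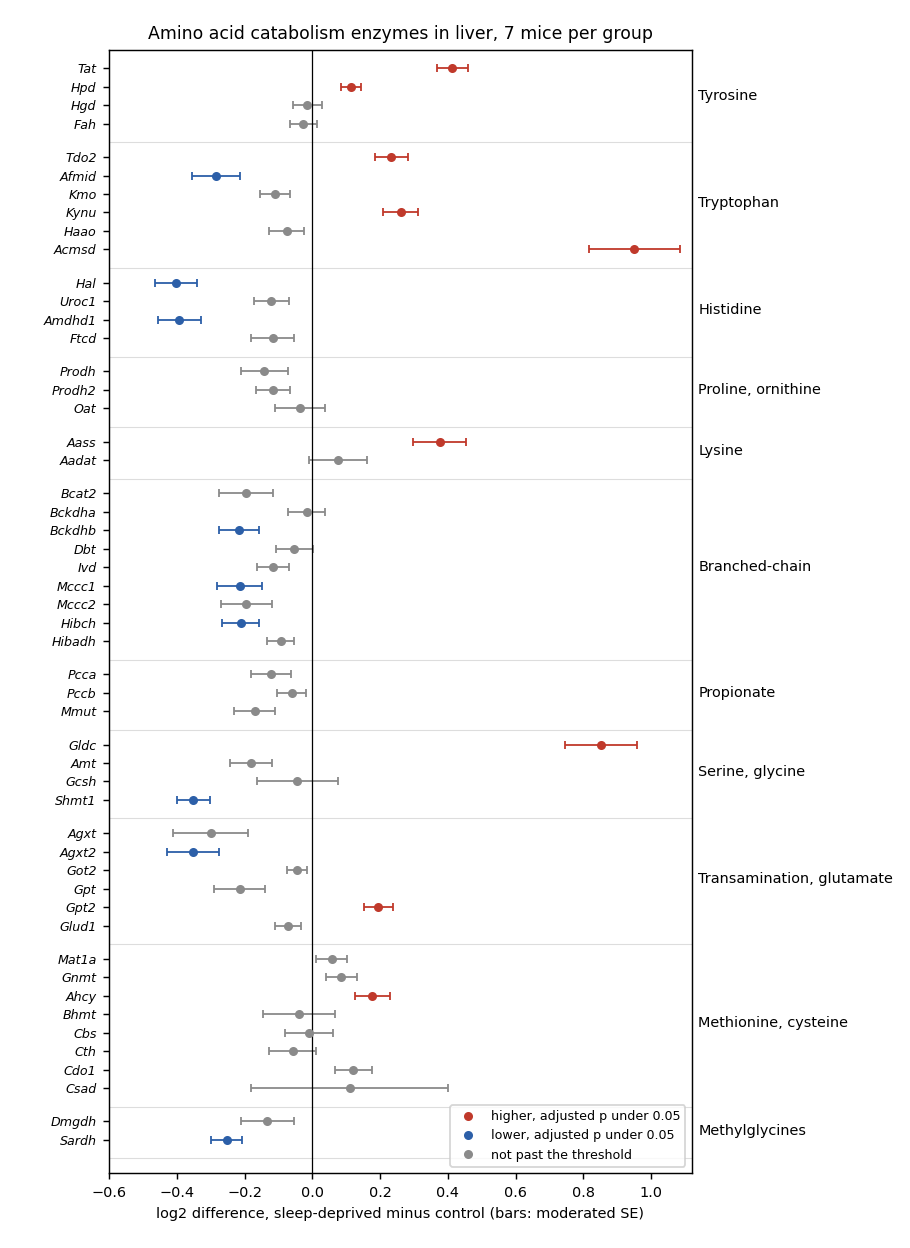
Log2 difference, sleep-deprived minus control, of the 51 enzymes grouped by the amino acid they degrade; points are differences of group means (n = 7 each), bars the moderated SE, red higher and blue lower at an adjusted p under 0.05. Acmsd (0.95) and Gldc (0.85) stand apart on the right, and all 9 branched-chain enzymes lie left of 0.

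In tyrosine breakdown the first enzymes rose and the later ones had differences close to 0. Tat, the tyrosine aminotransferase that opens the pathway (probe set 17505478), had log2 levels of 12.07 to 12.46 in controls (median 12.36) and of 12.68 to 12.79 after sleep deprivation (median 12.76). Every sleep-deprived mouse was above every control. The SD was 0.13 in controls, where mouse 4 was lowest and the next value was 12.26, and 0.042 after sleep deprivation. The difference in spread was not tested. This was a rise of 33.2%, or a log2 difference of 0.41 ± 0.047 (moderated SE, limma adjusted p = 8.45e-06). Errors of the other single genes are also moderated SEs. Hpd, the dioxygenase that acts on the product of Tat, rose by 0.12 ± 0.029 (12.23 to 12.36 in controls, 12.34 to 12.45 after sleep deprivation, limma adjusted p = 0.0154), with sleep-deprived mouse 1 alone inside the control range. That call was lost in eBayes without the intensity trend (0.166) and with quantile normalization repeated (0.0804), the adjusted p of its other 21 alternatives lying between 0.00871 and 0.0381. Hgd, which opens the homogentisate ring, was at -0.015 ± 0.043, and Fah, the last enzyme, whose loss causes tyrosinaemia, at -0.026 ± 0.040. Neither passed.

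Tryptophan enzymes moved in both directions along the kynurenine pathway, which leads from tryptophan to NAD or to full oxidation. The entry enzyme Tdo2 (probe set 17406186) lay between 11.29 and 11.46 in controls (median 11.41) and between 11.42 and 11.83 after sleep deprivation (median 11.65). It rose by 0.23 ± 0.049 (limma, adjusted p = 0.00366), with sleep-deprived mouse 2 alone inside the control range. The formamidase Afmid, the next step (probe set 17258851), lay between 9.56 and 9.77 in controls (median 9.59) and between 9.08 and 9.64 after sleep deprivation (median 9.41). Sleep-deprived mouse 10 alone reached the control range. The enzyme fell, with a difference of -0.28 ± 0.072 (adjusted p = 0.0151). It did not pass with the sample number as a covariate (-0.20, adjusted p = 0.0843, against 0.00261 to 0.0363 in the other 22 alternatives).

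Further along the same pathway, Kmo, which hydroxylates kynurenine, was at -0.11 ± 0.044 (limma, adjusted p = 0.147), and Haao, which opens the ring of hydroxyanthranilate, at -0.076 ± 0.051 (adjusted p = 0.477). Kynu, the kynureninase between them (probe set 17370527), rose by 0.26 ± 0.052 (adjusted p = 0.00278). Its values were 8.31 to 8.65 in controls (median 8.52) and 8.68 to 8.83 after sleep deprivation (median 8.79), without overlap.

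The largest rise of all the enzymes was that of Acmsd, the decarboxylase that draws the intermediate made by Haao away from NAD synthesis (probe set 17216779). Controls lay between 6.56 and 7.42 (median 6.73) and sleep-deprived mice between 7.58 and 8.28 (median 7.81). All 7 sleep-deprived mice were above all controls, although the controls spread widely (SD 0.35). The difference was 0.95 ± 0.13, or 1.93-fold (limma, adjusted p = 9.13e-05). Qprt, the enzyme of the competing route to NAD, was at -0.092 ± 0.069 and did not pass (adjusted p = 0.547).

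**Figure D2:**
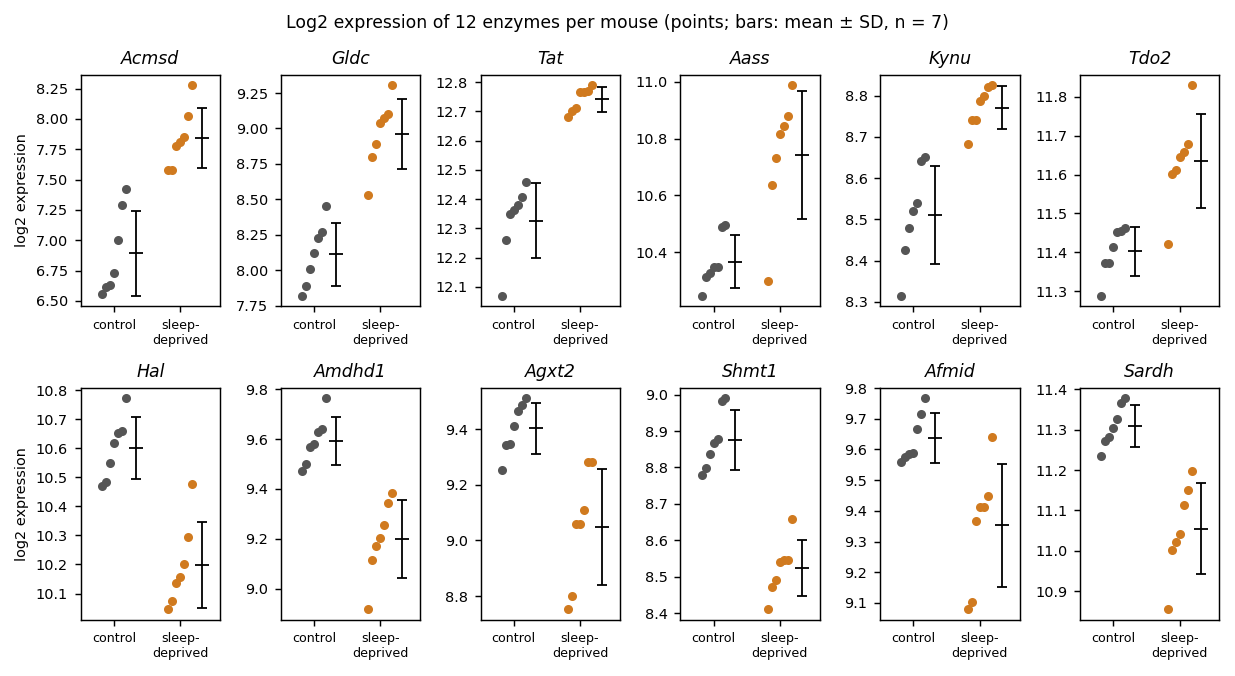
Log2 expression per mouse of the 6 largest rises (top) and the 6 largest falls (bottom) among the 18 enzymes past the threshold; grey points are controls, orange points sleep-deprived mice, bars mean ± SD, and each panel has its own axis. In Acmsd, Gldc, Tat and Kynu every sleep-deprived mouse lies above every control, and in Amdhd1, Shmt1 and Sardh every one lies below.

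The histidine enzymes fell in part and no member rose. Hal, the histidase that removes ammonia from histidine (probe set 17236552), lay between 10.47 and 10.77 in controls (median 10.62) and between 10.05 and 10.48 after sleep deprivation (median 10.16). Only sleep-deprived mouse 6 touched the control range. The difference was -0.40 ± 0.062 (limma, adjusted p = 0.000237), a fall to 0.757 of the control level. Amdhd1, the imidazolonepropionase of the third step (probe set 17244350), had control values of 9.47 to 9.76 (median 9.58) and sleep-deprived values of 8.92 to 9.38 (median 9.21), with no overlap and a difference of -0.39 ± 0.064 (adjusted p = 0.000391).

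Uroc1, the urocanase between Hal and Amdhd1, was at -0.12 ± 0.052 (limma, adjusted p = 0.194) and Ftcd, which passes the formimino group to folate, at -0.12 ± 0.064 (adjusted p = 0.350). Both lay below 0 without passing. Hal and Amdhd1 are next to each other among the coding genes of chromosome 10 in RefSeq, where they were the only neighbours among the enzymes and related genes that both passed. The adjacent genes Bhmt, Bhmt2 and Dmgdh of chromosome 13 and Ido1 and Ido2 of chromosome 8 held no gene past the threshold.

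In lysine breakdown the entry enzyme rose and enzymes further down fell. Aass, the bifunctional synthase that starts the pathway (probe set 17465080), lay between 10.25 and 10.50 in controls (median 10.35) and between 10.30 and 10.99 after sleep deprivation (median 10.82). Sleep-deprived mouse 2 was inside the control range and below the control mean, and the other 6 were above every control. The difference was 0.38 ± 0.078 (limma, adjusted p = 0.00368). Aadat, an aminotransferase of the middle of the pathway, was at 0.075 ± 0.086 (adjusted p = 0.730) and turned to -0.014 with the sample number as a covariate.

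Among related lysine genes, Dhtkd1, a subunit of the oxoadipate dehydrogenase complex, fell by 0.47 ± 0.064 on the log2 scale (limma, adjusted p = 6.47e-05). Its values were 7.93 to 8.17 in controls and 7.32 to 7.76 after sleep deprivation. Gcdh, the glutaryl-CoA dehydrogenase after it, fell by 0.16 ± 0.042 (adjusted p = 0.0218), a call lost without sleep-deprived mouse 5 (0.0525), in eBayes without the trend (0.0891) and with the sample number as a covariate (0.0888), within a range from 0.00939 to 0.0891. Aldh7a1 was at -0.076 ± 0.044 and did not pass.

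No proline or ornithine member passed. Prodh, the proline dehydrogenase, was at -0.14 ± 0.069 (limma, adjusted p = 0.268), Prodh2, which acts on hydroxyproline, at -0.12 ± 0.050 (adjusted p = 0.189) and Oat, the ornithine aminotransferase, at -0.036 ± 0.074 (adjusted p = 0.870). Aldh4a1, a related gene whose enzyme completes the route from proline to glutamate, fell by 0.31 ± 0.060 (adjusted p = 0.00193), with no overlap between 8.99 to 9.23 in controls and 8.61 to 8.94 after sleep deprivation.

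The 9 branched-chain enzymes all had differences below 0, with a median of -0.20, but only 3 passed. With quantile normalization repeated, Bckdha lay above 0 (0.0082) and the other 8 below. Bckdhb, a subunit of the dehydrogenase that commits branched-chain keto acids to oxidation, fell by 0.22 ± 0.058 (limma, adjusted p = 0.0225), from 8.51 to 8.69 in controls to 8.23 to 8.57. Hibch, a hydrolase of valine breakdown, fell by 0.21 ± 0.055 (adjusted p = 0.0183), from 7.55 to 7.76 in controls to 7.31 to 7.59. Mccc1, a subunit of the leucine carboxylase, fell by 0.22 ± 0.066 (adjusted p = 0.0498), from 7.42 to 7.74 in controls to 7.21 to 7.56. In each of these 3 enzymes all 7 sleep-deprived mice were below the control mean, and the ranges of the groups overlapped.

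The calls of Bckdhb and Mccc1 were close to the threshold. That of Bckdhb was lost without sleep-deprived mouse 1 (limma, adjusted p = 0.0530) or mouse 5 (0.0564) and with the sample number as a covariate (0.122), in a range from 0.0121 to 0.122. Mccc1 did not pass in 10 of 14 fits with a mouse omitted (sleep-deprived mice 1, 2, 5 and 13 and control mice 4, 7, 8, 9, 11 and 14) and in 5 of the 9 other alternatives, its adjusted p ranging from 0.0195 to 0.114. The others did not pass: Bcat2 (-0.20 ± 0.080), the aminotransferase of the first step, Bckdha (-0.017 ± 0.055) and Dbt (-0.053 ± 0.054), further subunits of the dehydrogenase, Ivd (-0.12 ± 0.047) for leucine, Mccc2 (-0.20 ± 0.076) and Hibadh (-0.093 ± 0.040) for valine.

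The largest fall among the related genes was that of Ppm1k, the phosphatase that activates the branched-chain dehydrogenase. Its log2 level was 9.87 to 10.14 in controls (median 10.06) and 9.13 to 9.41 after sleep deprivation (median 9.27). The difference was -0.75 ± 0.056 (limma, adjusted p = 1.15e-07), larger than that of any of the enzymes that fell. Bckdk, the kinase that inhibits the same dehydrogenase, was at -0.037 ± 0.060 (adjusted p = 0.823). The hydratases Echs1 and Auh, which serve branched-chain breakdown, also fell, Echs1 by 0.29 ± 0.058 (adjusted p = 0.00230) and Auh by 0.27 ± 0.064 (adjusted p = 0.0105). In propionate metabolism, into which valine and isoleucine lead, Pcca (-0.12 ± 0.060), Pccb (-0.061 ± 0.044) and Mmut (-0.17 ± 0.061) lay below 0 and did not pass (limma, adjusted p from 0.0999 to 0.519).

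Glycine and serine enzymes split. Gldc, the glycine decarboxylase of the mitochondrial glycine cleavage system (probe set 17363865), had control values of 7.82 to 8.45 (median 8.12) and sleep-deprived values of 8.53 to 9.31 (median 9.04). Each sleep-deprived mouse exceeded each control, mouse 2 being the lowest of them. The difference was 0.85 ± 0.11, or 1.80-fold (limma, adjusted p = 2.58e-05). For the RNA of Amt and Gcsh, which encode other proteins of the system, no rise was shown. Amt, the aminomethyltransferase, was at -0.18 ± 0.063 (adjusted p = 0.0862) and Gcsh, the lipoate carrier protein, at -0.045 ± 0.12 (adjusted p = 0.905). The Gcsh probe set was dim, with log2 levels of 5.00 to 5.82 over both groups. Amt passed as lower when only the brighter genes were tested (0.0459) and without sleep-deprived mouse 2 (0.0489), its adjusted p otherwise reaching 0.197.

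Shmt1, the cytosolic enzyme that interconverts serine and glycine (probe set 17263673), lay between 8.78 and 8.99 in controls (median 8.87) and between 8.41 and 8.66 after sleep deprivation (median 8.54). The groups did not overlap, and Shmt1 fell, with a difference of -0.35 ± 0.049 (limma, adjusted p = 7.79e-05). Shmt2, its mitochondrial counterpart, was at -0.13 ± 0.057 (adjusted p = 0.209). Hao1, the peroxisomal glycolate oxidase and a related gene, rose by 0.28 ± 0.043 (adjusted p = 0.000203), from 9.62 to 9.80 in controls to 9.82 to 10.07.

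Of the 6 enzymes of transamination and glutamate, Gpt2 rose, Agxt2 fell and 4 did not pass. Gpt2, the mitochondrial alanine aminotransferase (probe set 17503446), rose by 0.20 ± 0.044 (limma, adjusted p = 0.00626), from 10.30 to 10.52 in controls to 10.54 to 10.71, without overlap. Gpt, the cytosolic form, was at -0.22 ± 0.077 (adjusted p = 0.0969) and passed as lower without sleep-deprived mouse 6 (0.00785), the other alternatives lying between 0.0509 and 0.200. Got1, the cytosolic aspartate aminotransferase and a related gene, rose by 0.60 ± 0.079 (adjusted p = 4.98e-05), while mitochondrial Got2 was at -0.045 ± 0.029 (adjusted p = 0.465).

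Agxt2, a mitochondrial aminotransferase that uses glyoxylate and alanine (probe set 17310282), lay between 9.25 and 9.51 in controls (median 9.41) and between 8.75 and 9.28 after sleep deprivation (median 9.06). Sleep-deprived mice 3 and 6 were inside the control range. Agxt2 fell, with a difference of -0.35 ± 0.076 (limma, adjusted p = 0.00473). Agxt, the peroxisomal glyoxylate aminotransferase, was at -0.30 ± 0.11 (adjusted p = 0.114) and passed without sleep-deprived mouse 2 (0.0330) and with the sample number as a covariate (0.0435), its adjusted p otherwise reaching 0.239. Glud1, the glutamate dehydrogenase, was at -0.072 ± 0.039 and did not pass. The asparaginase gene Aspg, a related gene, fell by 0.42 ± 0.076 (adjusted p = 0.00112).

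The unequal change of isoenzymes and of subunits was tested on the log2 ratio within each array, by the exact two-sided permutation test over all 3432 splits of the mice, for 12 pairs, with p-values adjusted over the 12. Gpt over Gpt2 changed by -0.41 ± 0.075 (SE, adjusted p = 0.00466), with ratios of -1.59 to -1.27 in controls and -1.97 to -1.48 after sleep deprivation. Got2 over Got1 changed by -0.64 ± 0.10 (adjusted p = 0.00466), with sleep-deprived ratios of 0.21 to 0.87 against control ratios of 0.85 to 1.33. In both pairs the ranges overlapped slightly, through 1 sleep-deprived mouse.

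Gldc over Amt changed by 1.03 ± 0.16 (exact permutation, p = 0.000583, the smallest this test can give, adjusted p = 0.00466) and Gldc over Gcsh by 0.90 ± 0.22 (adjusted p = 0.00524). Shmt1 over Shmt2 (the Shmt1/Shmt2 ratio) changed by -0.22 ± 0.073 (adjusted p = 0.0266), which was not held without sleep-deprived mouse 2 (0.0517), control mouse 4 (0.0548) or control mouse 12 (0.0629), in a range from 0.00466 to 0.0629. These 5 pairs changed unequally by this test.

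For the other 7 pairs no unequal change was shown, which is not a sign of equal change. The Bckdha/Bckdhb ratio was at 0.20 ± 0.089 (exact permutation, adjusted p = 0.106), passing without control mouse 4 (0.0462), sleep-deprived mouse 10 (0.0392) or mouse 13 (0.0466), with adjusted p otherwise up to 0.197. Bcat2 over Bcat1 was at -0.16 ± 0.094 and Pcca over Pccb at -0.061 ± 0.040. Prodh over Prodh2 (-0.027 ± 0.058), Agxt over Agxt2 (0.053 ± 0.095), Bhmt over Bhmt2 (-0.038 ± 0.12) and Mccc1 over Mccc2 (-0.020 ± 0.071) were each at an adjusted p of 0.773. The Bcat1 probe set had log2 levels of only 2.80 to 3.16, below every array median, and that of Bhmt 4.63 to 5.40, which limits these 2 ratios.

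**Figure D3:**
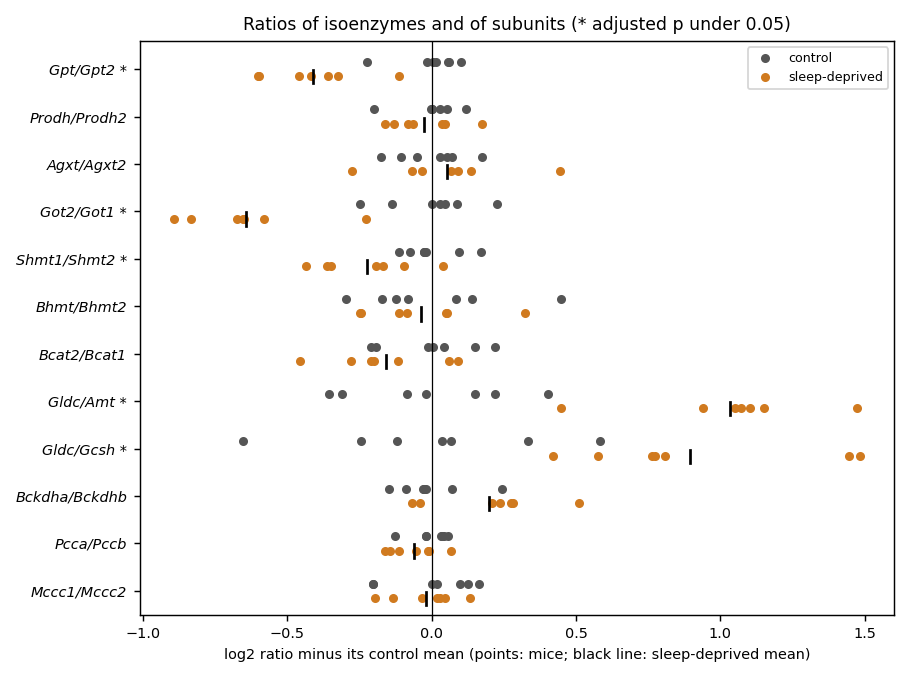
Log2 ratio of 2 genes within each array, minus the control mean of that ratio, for 12 pairs of isoenzymes or subunits; points are mice (grey control, orange sleep-deprived), black lines the sleep-deprived mean, and an asterisk marks an adjusted p under 0.05. Gldc/Amt and Gldc/Gcsh lie to the right in the sleep-deprived mice, and Gpt/Gpt2, Got2/Got1 and Shmt1/Shmt2 to the left.

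Of the 8 enzymes of methionine and cysteine metabolism only Ahcy passed. Ahcy, the hydrolase of adenosylhomocysteine (probe set 17330769), rose by 0.18 ± 0.052 (limma, adjusted p = 0.0390), from 9.70 to 10.03 in controls (median 9.91) to 9.92 to 10.21 (median 10.09). Sleep-deprived mice 2 and 6 lay inside the control range. It no longer passed when 1 mouse was omitted in 9 of 14 cases (sleep-deprived mice 1, 3, 5, 10 and 13 and control mice 4, 9, 11 and 12) and in 3 of the 9 other alternatives, with adjusted p from 0.00961 to 0.126. Another probe set of Ahcy was at 0.12 ± 0.086.

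The other steps from methionine to taurine did not pass. Mat1a, which makes adenosylmethionine, was at 0.057 ± 0.046, and Gnmt, which uses up its methyl groups on glycine, at 0.086 ± 0.046. Cbs and Cth, the pair of the transsulfuration route to cysteine, were at -0.0095 ± 0.070 and -0.058 ± 0.068, and the sign of Cbs turned with arrays centred on their median (0.0017) and with quantile normalization repeated (0.018). Bhmt, which remethylates homocysteine with betaine, was at -0.039 ± 0.11, on a probe set with log2 levels of only 4.63 to 5.40. Cdo1, the cysteine dioxygenase, was at 0.12 ± 0.054 (limma, adjusted p = 0.211) and passed without sleep-deprived mouse 2 (0.0412) and with the sample number as a covariate (0.0291), its adjusted p otherwise reaching 0.501.

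Csad, the decarboxylase on the way to taurine, varied more between mice than any of the other 50 enzymes did, by SD in either group. Controls ranged from 6.75 in mouse 11 to 8.94 in mouse 7 (SD 0.74) and sleep-deprived mice from 6.75 in mouse 3 to 8.44 in mouse 1 (SD 0.61). The groups overlapped fully, and the difference was 0.11 ± 0.29 (limma, adjusted p = 0.903).

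Of the methylglycine dehydrogenases, Sardh, which demethylates sarcosine (probe set 17383254), fell by 0.25 ± 0.046 (limma, adjusted p = 0.00113). Its values were 11.23 to 11.38 in controls (median 11.30) and 10.86 to 11.20 after sleep deprivation (median 11.04), without overlap. Dmgdh, the step before it, was at -0.13 ± 0.079 (adjusted p = 0.398).

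**Figure D4:**
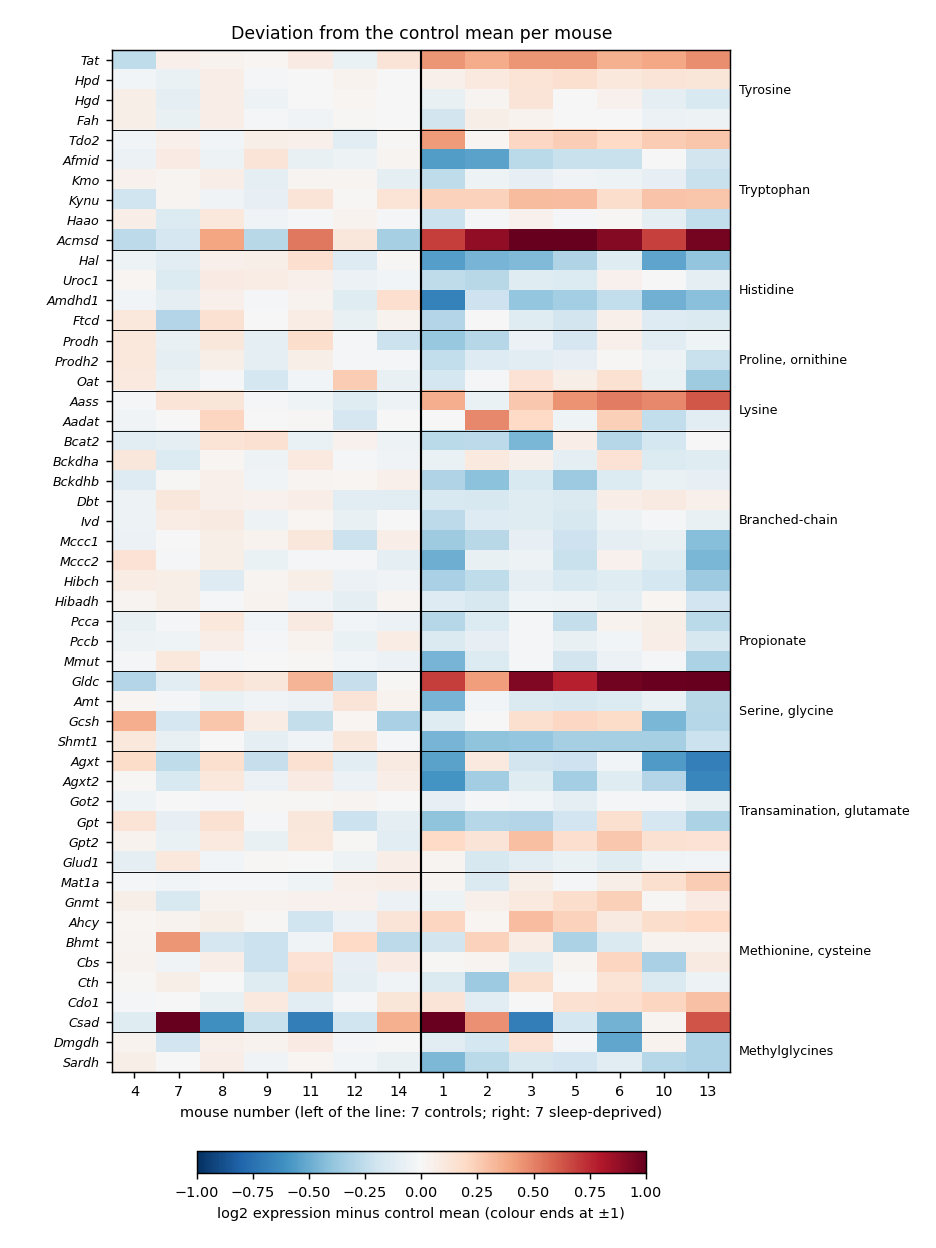
Log2 expression of the 51 enzymes (rows, grouped by amino acid) in each of the 14 mice (columns) minus the control mean; colours run from blue (lower) to red (higher) and end at ±1. Acmsd, Gldc and Tat are red in all 7 sleep-deprived mice, Shmt1 and Amdhd1 blue in all 7, and Csad takes strong colours in both groups.

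The number of called enzymes that lay inside the control range differed between sleep-deprived mice, a spread that was not tested. Of the 18 enzymes past the threshold, mouse 6 had 5 inside the control range, mice 2, 3 and 10 had 3 each and mice 1, 5 and 13 had 1 each. All 3 of mouse 2 were enzymes that had risen (Tdo2, Aass and Ahcy), and all 3 of mice 3 and 10 were enzymes that had fallen.

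Outside the list, 56 further genes of amino acid breakdown had been set down, of which 46 were measured. Here 2 rose (Got1 and Hao1) and 7 fell (Ppm1k, Dhtkd1, Aspg, Aldh4a1, Echs1, Auh and Gcdh), with a median of -0.061 over the 46. Those past the threshold made up 19.6%, beside 8.5% of all genes, 16.0% of the brighter 11090 and 26.6% of genes with a level of at least 8. The brighter 11090 hold 43 of the 46, and some of these lie below a level of 8. This list too was chosen with earlier results of these data known.

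Of 13 known regulators of these enzymes 3 were higher, 2 lower and 8 did not pass, which is 38.5% past the threshold. This stands beside 8.5% of all genes, 16.0% of the brighter 11090 and 26.6% of genes with a level of at least 8. Some of the 13 lay below that level. The 13 were chosen with earlier results of these data known, so their share is not a test. Nr3c1, the glucocorticoid receptor, fell by 0.22 ± 0.054 (limma, adjusted p = 0.0136), from 7.82 to 8.01 in controls to 7.43 to 7.75, without overlap. Klf15, a transcription factor known to promote amino acid breakdown, rose by 0.27 ± 0.068 (adjusted p = 0.0157), with 4 sleep-deprived mice still inside the control range. Foxo1, a factor held back by insulin, rose by 0.28 ± 0.060 (adjusted p = 0.00426) and Atf4, the factor of amino acid shortage, by 0.23 ± 0.055 (adjusted p = 0.0102). Another probe set of Foxo1 was at 0.23 ± 0.081 and did not pass when all probe sets were tested singly (limma, adjusted p = 0.0902). Gcgr, the glucagon receptor, fell by 0.20 ± 0.062 at an adjusted p of 0.04996, and did not pass in 11 of 14 fits with a mouse omitted (all but sleep-deprived mouse 2 and control mice 7 and 12) and in 6 of the 9 other alternatives, with adjusted p from 0.00311 to 0.111. Hnf4a was at 0.24 ± 0.076 and Cebpb at 0.16 ± 0.072, and neither passed (adjusted p = 0.0604 and 0.231).

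Liver markers were high and markers of other organs low. The mean log2 level of 8 hepatocyte markers, such as Alb and Ttr, was 11.78 to 11.89 in controls and 11.84 to 11.94 after sleep deprivation, with 2 of 8 higher (Apoa1 and Cps1), while 4 pancreas, 5 kidney and 4 muscle markers had means of at most 3.89 in any mouse. Of 7 sinusoidal endothelial markers 2 were higher (Lyve1 at 1.13 ± 0.18 and Pecam1 at 0.29 ± 0.080). The other 5 did not pass and lay between -0.18 (Kdr) and 0.17 (Stab1). The mean level of the 7 was 7.23 to 7.55 in controls and 7.42 to 7.84 after sleep deprivation. Of 9 pericentral hepatocyte markers 2 were lower (Lgr5 at -1.05 ± 0.14 and Cyp7a1 at -0.60 ± 0.15), while the other 7 lay between -0.14 and 0.077. The mean level of the 9 was 8.99 to 9.13 in controls and 8.70 to 9.00 after sleep deprivation. Of 7 periportal markers 3 were higher (Asl at 0.38 ± 0.052, Pck1 at 0.15 ± 0.044 and Cps1 at 0.11 ± 0.034) and 1, Hal, lower. Cps1 is also counted among the hepatocyte markers, and Hal is 1 of the 51 enzymes. The mean level of the 7 was 10.68 to 10.79 in controls and 10.73 to 10.90 after sleep deprivation. Of all genes 8.5% passed, and of those with a level of at least 8, 26.6%. None of 7 Kupffer, 7 stellate and 5 neutrophil markers passed, and Sox9 of 5 cholangiocyte markers was higher and Cd79a of 6 lymphocyte markers lower. The part of these cell types and zones in the differences of the enzymes was not tested.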

How the data were processed

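Per the labels' protocols, 100 ng of liver RNA was labelled per sample. The authors deposited log2 values of each probe set, and the submitters' processing notes name RMA, which corrects background, quantile normalizes and summarises probes. Its version, the filters and the genome build: not given in the sources used here. RMA compresses differences of dim genes, and depth does not apply: the number of arrays limits the precision. Array medians lay between 3.443 and 3.491, and correlations between arrays between 0.984 and 0.9903.

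Of 41345 probe sets 23521 had 1 gene symbol, 1814 had several and 16010 were unlisted. Groups came from the titles. Their numbers pair no samples. Sleep-deprived minus control was fitted with limma 3.58.1 (R 4.3.3, eBayes with trend, two-sided, Benjamini-Hochberg over 22180 genes, threshold 0.05). SEs are moderated. On simulated data of this size with independent normal noise, 87% of 100 genes changed by 0.5 and 99% of 100 changed by 1 were recovered, with 8 false calls. Smaller changes, such as the median of 0.27 of the enzymes called, were not simulated, so their recovery is not known.

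Named were all members and regulators past the threshold, the 6 largest rises and 6 largest falls among those members with full values, up to 8 related genes per direction, and genes completing a pathway or pair. Pairs were compared by exact permutation. Alternatives changed the eBayes settings, probe set choice, scaling, covariate and mice. Members, lists, pairs and motifs were chosen with earlier results of these data known. The promoter sequence of 1 further member is not reported here.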

Additional observations from a re-analysis of the deposited data

Results flagged for a closer look

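Within a group of 7 mice, a single mouse stood far from the rest where its gap to the next value exceeded 0.568 of the group's range. This held in 5 of 136 groups of values tested, and chance gives about 1 in 20. Among the enzymes, Mmut was 9.54 in control mouse 7 (next value 9.44), Dmgdh was 10.15 in the same mouse (next value 10.33), and Gpt was 9.20 in sleep-deprived mouse 6 (next value 8.87). Among related genes, Got1 was 10.70 in sleep-deprived mouse 2 (next value 11.05), and Nr3c1 was 7.43 in sleep-deprived mouse 3 (next value 7.68).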

How the results depend on the processing

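The alternatives were 9 changes of the processing (no trend, robust eBayes, array weights, brighter genes only, averaged probe sets, all probe sets tested singly, median centring, repeated quantile normalization, the sample number as a covariate) and the omission of each of the 14 mice in turn. The counts of enzymes, related genes, regulators, pairs and all genes called stayed within 1.5 times their value in each of them that was run on that count, pairs being run only with averaged probe sets and without each mouse. Without 1 mouse, 8 to 10 enzymes were higher and 7 to 10 lower. Of the 18 enzymes called, 13 kept the call in all 23 alternatives, 5 lost it in at least 1, and 0 changed sign, while 4 of the 33 others passed in at least 1. Differences near 0 changed sign: Aadat (-0.014) and Bhmt2 (0.045) with the sample number, Bckdha (0.0082), Cbs (0.018) and Bhmt2 (0.030) with repeated quantile normalization, and Cbs (0.0017) and Bhmt2 (0.0097) with median centring.

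Leaving out a mouse gave ranges that crossed 0 for Hgd (-0.039 to 0.0075), Oat (-0.067 to 0.017), Bckdha (-0.043 to 0.0030), Gcsh (-0.098 to 0.024), Bhmt (-0.084 to 0.035), Bhmt2 (-0.028 to 0.037), Cbs (-0.047 to 0.042), Csad (-0.037 to 0.36) and the ratios Agxt/Agxt2 (-0.013 to 0.11), Bhmt/Bhmt2 (-0.098 to 0.037) and Mccc1/Mccc2 (-0.054 to 0.010). No paired analysis was possible because the groups share no sample number.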
